A study of Mus musculus with 6 samples.

Results

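Genes of fatty acid activation and beta-oxidation were followed in CCR6+ group 3 innate lymphoid cells (ILC3s) with and without an intact RANKL gene. The set holds 39 listed genes that charge fatty acids with coenzyme A, carry them into mitochondria, shorten them in mitochondria or peroxisomes, pass on the electrons, or control these enzymes. Of these, 36 were measured, out of 19938 genes tested on the array. Each was taken through the platform annotation, with the probe set of highest mean over the 6 arrays where a gene had several. Cpt1b and Acsl3 lie on probe sets that carry several gene symbols and Acsl1 was not named in the annotation table, so these 3 were not analysed here.

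The cells were sorted from the small intestinal lamina propria of adult C57BL/6 mice. The control group is Tnfsf11fl/fl, with both RANKL (Tnfsf11) alleles floxed and no Cre named, and has 3 arrays. The RANKL-deficient group has the same floxed alleles together with Cre, and has 3 arrays. All 6 samples carry the floxed alleles, and Cre is named in the RANKL-deficient samples alone, so an effect of Cre cannot be told apart from that of the deletion. Whether each sample is a different mouse is not stated in the labels, and the p-values then measure only the variation among these arrays, which may be technical.

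Fatty acids enter metabolism as acyl-CoA, made by acyl-CoA synthetases. Long chains cross into mitochondria as carnitine esters, and each turn of beta-oxidation then runs through dehydrogenation, hydration, a further dehydrogenation and thiolysis. The electrons of the opening step reach the respiratory chain through the electron transfer flavoprotein. The PPAR nuclear receptors and the coactivator PGC-1alpha are the best known transcriptional regulators of these enzymes. ILC3s are innate lymphocytes that guard the gut barrier, and lipid use is among the energy sources studied in innate lymphoid cells.

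In RANKL-deficient cells, a few enzymes had higher values and none passed the test over all genes. Acsl4, an acyl-CoA synthetase that prefers arachidonic acid, had the smallest p and measured 1.69-fold higher. Hadh and Acaa2, which catalyse the closing steps of a beta-oxidation turn in mitochondria, measured 1.54-fold and 1.64-fold higher. Decr2, a peroxisomal reductase for unsaturated chains, measured 1.33-fold higher and Etfb, a subunit of the electron transfer flavoprotein, 1.71-fold. No gene of the carnitine shuttle and no regulator had an unadjusted p under 0.05, and their differences lay on both sides of 0. The counts, values by array and limits of each are given below by role.

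Promoter windows of 4 genes are shown, from RefSeq on build GRCm38.p6, to give the sequence context of the loci. Acsl4 and Hadh are the genes with the smallest p, and each is shown as the 250 bases before its start on its own strand. Hadha and Hadhb encode the subunits of the mitochondrial trifunctional protein from divergent starts 273 bases apart, and the 228 bases that both windows hold are shown on the plus strand. Capitals mark the GC box, searched as GGGCGG on both strands. The window of Acsl4 is chrX:142390536-142390785 on the minus strand, that of Hadh is chr3:131272102-131272351 on the minus strand, and the shared one is chr5:30155003-30155230.
Acsl4: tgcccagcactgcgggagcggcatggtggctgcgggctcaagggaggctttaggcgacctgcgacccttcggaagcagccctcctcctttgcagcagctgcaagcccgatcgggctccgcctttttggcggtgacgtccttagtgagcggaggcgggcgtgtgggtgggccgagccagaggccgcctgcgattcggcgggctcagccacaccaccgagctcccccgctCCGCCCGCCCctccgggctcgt
Hadh: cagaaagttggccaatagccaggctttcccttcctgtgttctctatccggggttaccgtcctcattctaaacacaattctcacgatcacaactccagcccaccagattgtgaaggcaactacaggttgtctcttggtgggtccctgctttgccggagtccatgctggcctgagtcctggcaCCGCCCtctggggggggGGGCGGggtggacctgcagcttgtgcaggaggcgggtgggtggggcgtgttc
Hadha and Hadhb: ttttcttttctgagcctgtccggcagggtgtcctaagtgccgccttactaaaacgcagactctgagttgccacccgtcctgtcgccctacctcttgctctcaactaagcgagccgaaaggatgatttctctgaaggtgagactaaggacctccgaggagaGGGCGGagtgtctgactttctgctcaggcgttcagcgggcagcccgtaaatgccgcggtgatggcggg

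The promoters of the set were GC-rich. RefSeq windows of 300 bases, 250 before and 50 after a start, were matched for 32 of the 36 measured genes by symbol, as 36 windows since Acsl6 and Pparg have several. Their median GC content was 60.7%, against 52.7% over all 32851 windows. The GC box occurred in 29 of 36 windows (80.6%) and in 35.7% of all windows. TATAAA, the TATA box, occurred in 1 of them, at a start of Pparg, against 13.6% of all. The nuclear receptor half-site AGGTCA was found in 8 windows (22.2%), among them those of Cpt1a, Acadm and Acadvl, against 16.3% of all. The PPAR direct repeat, 2 half-sites 1 base apart, matched 0 of 36 windows and 0.0396% of all. All motifs were searched on both strands, a half-site also counts inside a repeat, and a match is a description of letters alone.

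The sorted cells carried the transcripts that define ILC3s. Il7r measured 12.28 ± 0.03 on control arrays and 12.26 ± 0.03 on RANKL-deficient arrays (log2 scale of the deposited values, mean ± SD, n = 3 in each group here and throughout). Kit, Id2, Thy1 and Il23r had means above 10 in both groups, and Ccr6 measured 9.13 ± 0.62 and 9.45 ± 0.15. Control arrays 1 and 2 stood apart from the other 4, with mean correlations across genes of 0.960 and 0.970 against 0.975 to 0.977. The differences of the 12 genes of smallest p are plotted with and without them. Tnfsf11 itself did not differ between the groups beyond its spread (8.47 ± 0.26 and 8.51 ± 0.15), and where its probe set lies in relation to the deleted part is not stated, so it does not check the labels.

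Among the listed markers of other cells, the widest differences were those of genes listed for T cells, in both directions. Cd3g, a chain of the T cell receptor complex, measured 6.69 ± 0.78 in control and 4.78 ± 0.54 on RANKL-deficient arrays, without overlap, and did not pass the adjusted threshold (limma, adjusted p = 0.408). Cd4 measured 8.63 ± 0.39 and 9.32 ± 0.16. Its difference was 0.69 the other way, also without overlap. The CD3 chains Cd3e and Cd3d differed by −0.70 and 0.26, with overlap for both. Whether T cells or the ILC3s themselves carried the Cd4 signal was not tested. Without control arrays 1 and 2 the differences were −1.04 for Cd3g and 0.39 for Cd4. Lower values were the rule on these arrays, in 12054 of 19938 genes, and the marker counts are to be read against that. Of the 6 T cell markers 4 had lower values, and the list mean ran from 5.76 to 6.21 in control and from 5.61 to 5.93 in RANKL-deficient arrays. Epithelial markers were lower in 9 of 10 (list means 5.31 to 5.43 and 4.90 to 5.51), stromal and endothelial markers in 7 of 8 (5.55 to 5.69 and 5.34 to 5.54), B cell markers in 4 of 4 (4.50 to 4.78 and 4.35 to 4.50) and ILC2 markers in 3 of 4 (5.78 to 6.03 and 5.58 to 5.95). Macrophage and monocyte markers had 5 of 10 lower (5.27 to 5.34 and 4.74 to 5.41). No marker is at 0 on this scale, since normalized array values have no true zero. The part of these cells in the results below was not tested, and in such bulk samples fewer cells of a type and less RNA per cell cannot be told apart.

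Across the set, 0 of 36 genes passed at an adjusted p under 0.05 (limma, Benjamini-Hochberg over all genes), where 0.00502% of all genes did, a single gene. An unadjusted p under 0.05 was reached by 5 genes, all with higher values on RANKL-deficient arrays. The same share over all genes was 4.25% higher and 3.9% lower. The groups did not overlap for 5 genes of the set, all higher, where 5.28% of all genes were higher without overlap and 9.08% lower. The median difference over the set, RANKL-deficient minus control, was 0.12 on the log2 scale, against −0.054 over all genes. Higher values were seen in 23 of 36 (63.9%) and in 39.5% of all genes.

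The set lay higher in signal than most genes, and genes of higher signal also had higher values more often. Of the 36 genes, 29 had a mean signal over the median gene's 5.125. Among all genes above that median, 54.7% had higher values, 7.82% were higher at an unadjusted p under 0.05, 3.87% lower at that p, 9.12% were higher without overlap and 6.11% lower without overlap. Of the 29 in the set, 21 had higher values, 5 were higher and 0 lower at an unadjusted p under 0.05, and 5 were higher and 0 lower without overlap. The 7 genes below the median, which are Cpt1c, Acad10, Acsl6, Ehhadh, Ppara, Pparg and Ppargc1a, had a median of −0.010. A background level was not measured, so a gene in this group may not be expressed and its fold may be understated.

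**Figure D1:**
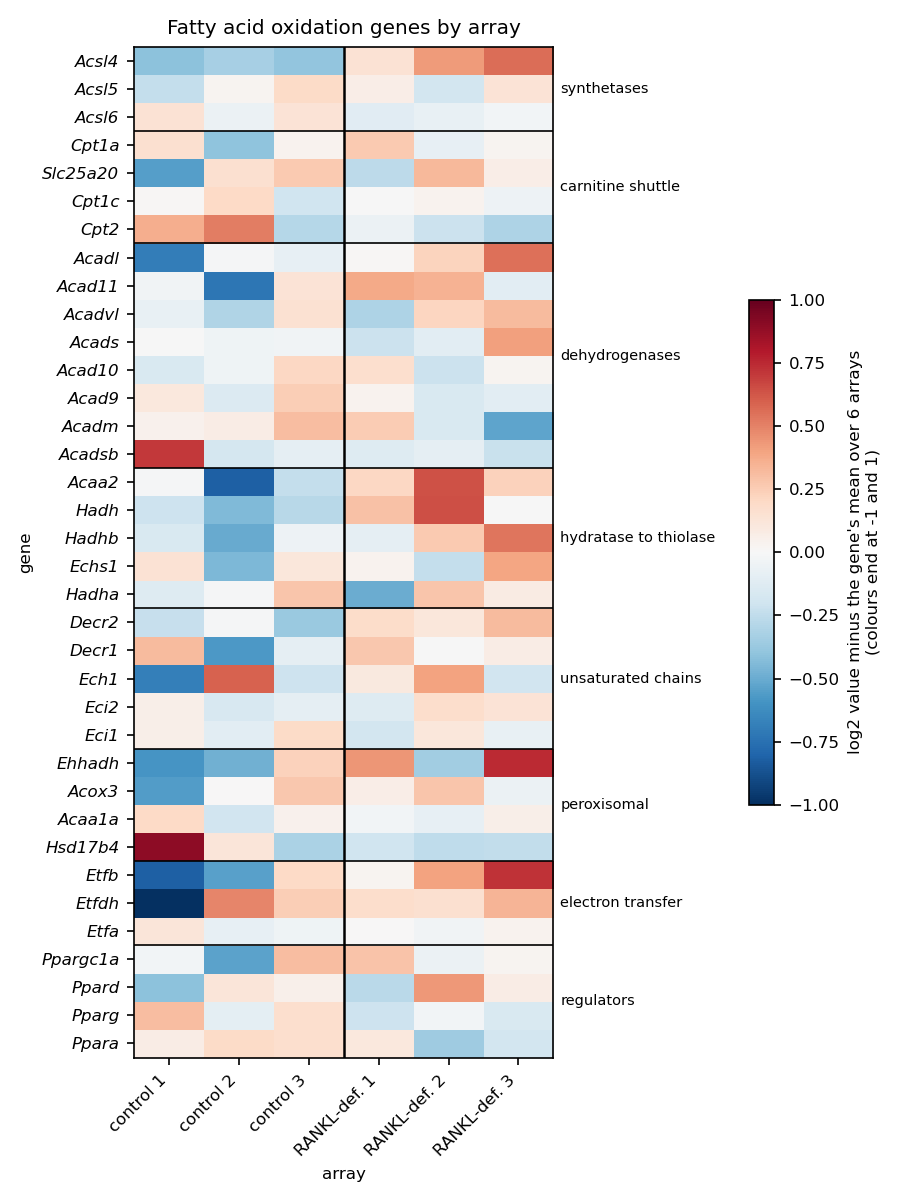
Log2 value of each of the 36 genes (rows, by role) on each of the 6 arrays (columns), as the deviation from the gene's own mean, with red above and blue below it. Acsl4 is blue on all 3 control arrays and red on all 3 RANKL-deficient arrays, while most other rows change colour within a group, such as Etfdh, which is low on control array 1 alone.

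Acyl-CoA synthetases activate long-chain fatty acids, and of the 3 measured 1 separated the groups. Acsl4 measured 6.67, 6.75 and 6.69 on control arrays 1 to 3 and 7.22, 7.51 and 7.64 on RANKL-deficient arrays 1 to 3. Every RANKL-deficient array lay above every control array, and the control arrays lay within 0.1 of each other. The difference was 0.75 (SE 0.14, 95% confidence interval 0.41 to 1.09, unadjusted p = 0.00117 and adjusted p = 0.327 by limma), with means of 6.70 ± 0.04 (SD, n = 3) and 7.46 ± 0.21 (SD, n = 3). It lay between 0.66 and 0.87 in every alternative run, including the fit without control arrays 1 and 2, and its adjusted p lay between 0.212 and 0.816. Acsl5, the synthetase typical of intestinal epithelium, measured 7.95 ± 0.22 and 7.96 ± 0.17, a difference of 0.013 with an interval of −0.37 to 0.39. Acsl6, best known from the nervous system, differed by −0.15 at a level below the median gene. Neither passed the test.

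The carnitine shuttle hands the acyl group from coenzyme A to carnitine and back across the mitochondrial membranes, and none of its 4 measured genes separated the groups. Cpt2, the carnitine palmitoyltransferase of the inner membrane, measured 8.40, 8.55 and 7.75 in control and 7.99, 7.82 and 7.73 on RANKL-deficient arrays. Control arrays 1 and 2 were high and control array 3 lay within the RANKL-deficient range. The difference of −0.39 (SE 0.22, adjusted p = 0.684 by limma) turned to 0.093 without control arrays 1 and 2. Cpt1a, the rate-limiting outer-membrane transferase in most tissues, differed by 0.14 with an interval of −0.30 to 0.57. Slc25a20, the carnitine-acylcarnitine carrier, differed by 0.085, and Cpt1c, the brain form, by −0.0095 at a level below the median gene.

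Acyl-CoA dehydrogenases open each turn, and their 8 measured genes divided evenly, 4 with higher and 4 with lower values. Acadl, the long-chain enzyme, measured 6.97, 7.66 and 7.58 in control and 7.68, 7.88 and 8.21 on RANKL-deficient arrays. The groups did not overlap, but control array 2 and RANKL-deficient array 1 lay next to each other, and control array 1 was the low value. The difference was 0.52 (SE 0.23, 95% confidence interval −0.019 to 1.06, adjusted p = 0.615 by limma), 0.31 without control array 1 and 0.34 without control arrays 1 and 2. Acad11, which acts on long chains, measured 5.58, 4.89 and 5.75 in control and 5.99, 5.97 and 5.51 on RANKL-deficient arrays. These groups overlapped, and control array 2 was the low one. The difference of 0.41 (SE 0.25) went to 0.16 without control array 2 and to 0.070 without control arrays 1 and 2.

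None of the other 6 dehydrogenases had an unadjusted p under 0.05 with all arrays (limma), and their differences lay on both sides of 0. Acadvl, the very long-chain enzyme, measured 7.74 ± 0.23 and 7.89 ± 0.34. Acadm, the medium-chain enzyme, measured 7.86 ± 0.15 and 7.58 ± 0.39, and Acads, the short-chain enzyme, 6.49 ± 0.02 and 6.55 ± 0.34. Acadsb, which acts on short branched chains, differed by −0.30, with control array 1 at 7.74 and the other 5 arrays between 6.81 and 6.94, and by −0.015 without control array 1. Acad9, also an assembly factor of respiratory complex I, differed by −0.14 and Acad10 by −0.010. All 6 adjusted p-values lay between 0.729 and 0.989 (limma).

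The hydratase, hydroxyacyl dehydrogenase and thiolase genes finish each turn in mitochondria, and 4 of 5 had higher values with a median of 0.47. Hadh, the dehydrogenase for medium and short chains, measured 6.93, 6.69 and 6.86 in control and 7.43, 7.78 and 7.13 on RANKL-deficient arrays. All RANKL-deficient arrays lay above all controls, with array 2 the highest. The difference was 0.62 (SE 0.19, 95% confidence interval 0.18 to 1.06, unadjusted p = 0.0123, adjusted p = 0.517 by limma), and it ranged from 0.45 without RANKL-deficient array 2 to 0.78 without RANKL-deficient array 3. Acaa2, the mitochondrial thiolase, measured 7.54, 6.74 and 7.31 in control and 7.76, 8.19 and 7.78 on RANKL-deficient arrays. These groups also did not overlap, with control array 2 the lowest and RANKL-deficient array 2 the highest. The difference was 0.71 (SE 0.24, unadjusted p = 0.0191, adjusted p = 0.563 by limma), 0.48 without control array 2 and 0.60 without control arrays 1 and 2.

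Neither Hadhb nor Hadha, which share the promoter window shown above, passed the test. Hadhb, the thiolase subunit of the trifunctional protein, measured 8.19, 7.84 and 8.29 in control and 8.25, 8.60 and 8.88 on RANKL-deficient arrays. RANKL-deficient array 1 lay among the controls, and the other RANKL-deficient arrays lay above them. The difference was 0.47 (SE 0.20, adjusted p = 0.614 by limma), the other probe set of the gene gave 0.41, and without control arrays 1 and 2 it was 0.28. Hadha, the subunit with the hydratase and dehydrogenase activities, measured 8.67, 8.80 and 9.09 in control and 8.31, 9.09 and 8.89 on RANKL-deficient arrays, a difference of −0.091. Echs1, the mitochondrial short-chain hydratase, differed by 0.13, with the lowest value on control array 2 (6.77).

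**Figure D2:**
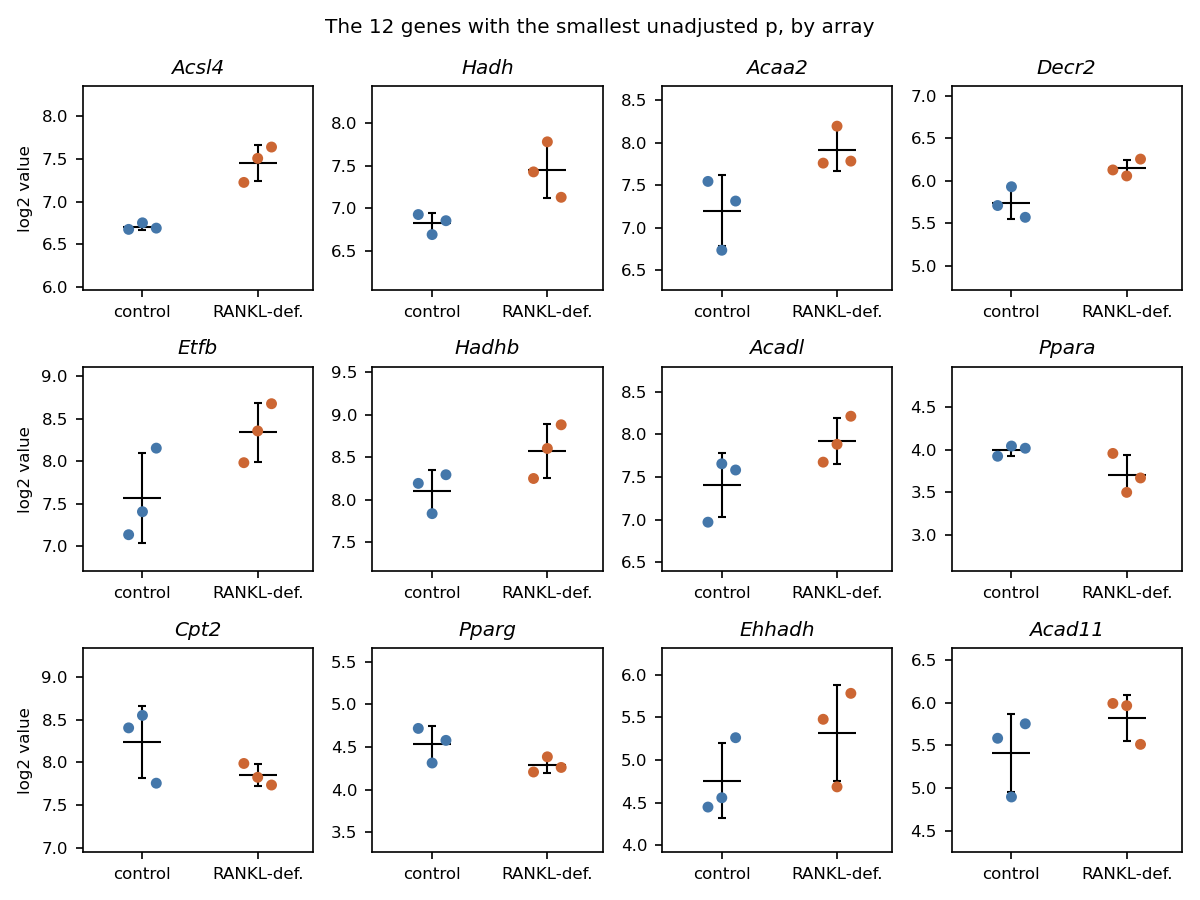
Log2 values of the 12 genes with the smallest unadjusted p, 1 point per array (blue control, orange RANKL-deficient, arrays 1 to 3 from left to right), with the mean and SD of each group. Each panel spans the same number of log2 units; the groups are apart for Acsl4, Hadh, Acaa2, Decr2 and Acadl and overlap for the other 7.

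Enzymes that handle double bonds in unsaturated chains had higher values in 4 of 5 genes, all small. Decr2 measured 5.71, 5.93 and 5.57 in control and 6.13, 6.06 and 6.26 on RANKL-deficient arrays. The groups did not overlap, with control array 2 next to RANKL-deficient array 2. The difference was 0.41 (SE 0.14, 95% confidence interval 0.075 to 0.74, unadjusted p = 0.023, adjusted p = 0.578 by limma), and it lay between 0.33 and 0.58 in the alternatives, with 0.58 without control arrays 1 and 2. Decr1, the mitochondrial reductase of the same kind, measured 7.87 ± 0.45 and 8.10 ± 0.14, and its difference of 0.23 was −0.0014 without control array 2. The isomerases Eci2 and Eci1 differed by 0.12 and −0.095, and Ech1, a dienoyl-CoA isomerase, by 0.20 with control values from 7.94 to 9.21.

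The peroxisomal enzymes divided evenly. Ehhadh, the bifunctional hydratase and dehydrogenase and a classical PPARalpha target, measured 4.45, 4.56 and 5.26 in control and 5.48, 4.69 and 5.78 on RANKL-deficient arrays. The groups overlapped through control array 3 and RANKL-deficient array 2, and the mean of the gene was below the median gene. The difference of 0.56 (SE 0.33, adjusted p = 0.686 by limma) went to 0.053 without control arrays 1 and 2. Hsd17b4, the other bifunctional enzyme, measured 8.25, 7.48 and 7.05 in control and between 7.11 and 7.16 on RANKL-deficient arrays. Its difference of −0.46 went to −0.14 without control array 1 and to 0.081 without control arrays 1 and 2. Acox3, an acyl-CoA oxidase for branched chains, differed by 0.19 and the thiolase Acaa1a by −0.036, and neither passed.

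The 3 electron transfer genes differed among themselves, and 1 had an unadjusted p under 0.05. Etfb measured 7.14, 7.41 and 8.15 in control and 7.98, 8.35 and 8.67 on RANKL-deficient arrays. Control array 3 lay inside the RANKL-deficient range, and control arrays 1 and 2 lay below it. The difference was 0.77 (SE 0.295, 95% confidence interval 0.077 to 1.47, unadjusted p = 0.034, adjusted p = 0.593 by limma), and it went to 0.18 without control arrays 1 and 2. Etfa, the partner subunit, measured 9.12 ± 0.11 and 9.13 ± 0.04, a difference of 0.0027 with an interval of −0.28 to 0.29. Etfdh, the dehydrogenase that passes the electrons to ubiquinone, differed by 0.45, with control array 1 at 6.44 while the other 5 arrays lay between 8.02 and 8.34. Without that array the difference was −0.14.

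No regulator had an unadjusted p under 0.05 with all 6 arrays (limma). Ppara, the main PPAR of oxidative tissues, measured 3.92, 4.04 and 4.02 in control and 3.96, 3.50 and 3.67 on RANKL-deficient arrays. Pparg, the adipocyte and macrophage PPAR, measured 4.72, 4.31 and 4.58 in control and 4.21, 4.39 and 4.26 on RANKL-deficient arrays. Both had a mean below the median gene and overlapping groups, with differences of −0.29 (SE 0.15) and −0.25 (SE 0.15). Ppard, the widely expressed PPAR, measured 6.14, 6.68 and 6.60 in control and 6.28, 6.99 and 6.63 on RANKL-deficient arrays, a difference of 0.16. Ppargc1a, which encodes PGC-1alpha, measured 4.77, 4.26 and 5.11 in control and 5.09, 4.74 and 4.82 on RANKL-deficient arrays. The groups overlapped for both, and the Ppargc1a difference of 0.17 (SE 0.23) rests on 1 of 2 probe sets that disagree. All 4 adjusted p-values lay between 0.660 and 0.854 (limma).

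**Figure D3:**
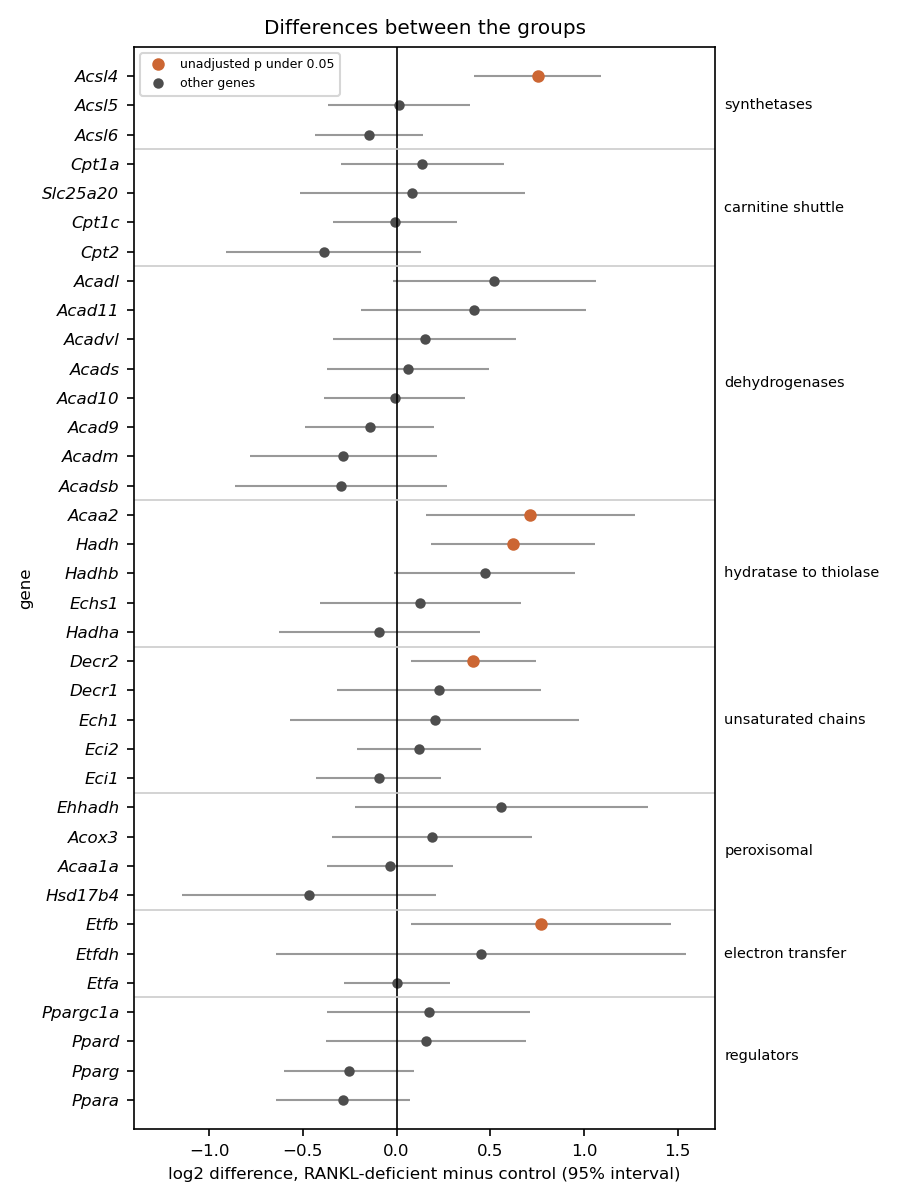
Log2 difference of each of the 36 genes, RANKL-deficient minus control, with its 95% confidence interval from limma, by role. The 5 genes in orange had an unadjusted p under 0.05 and lie to the right of 0, and the intervals of the others include 0.

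The precision set by 3 arrays a group was the same order as the differences. The median half-width of the 95% confidence interval over the 36 genes was 0.494 on the log2 scale, from 0.283 for Etfa to 1.09 for Etfdh. For 27 of 36 genes the whole interval lay within 1 log2 unit of 0. Taken by role, the mean of the measured genes per array did not overlap between the groups for 3 of 8 roles. These were the hydratase to thiolase genes (7.37 to 7.78 in control and 7.80 to 8.13 in RANKL-deficient arrays), the unsaturated chain genes (6.92 to 6.98 and 7.08 to 7.19) and the synthetases (6.20 to 6.35 and 6.40 to 6.59), where Acsl4 alone of the 3 genes separated the groups. The mean of the neighbouring fatty acid supply and storage list did not overlap either (5.83 to 6.00 and 6.18 to 6.27). The means of the other neighbouring lists did overlap. So did those of the marker lists, apart from the stromal and endothelial one, which was lower without overlap. No share over lists drawn from all genes was computed. The mean over all 36 genes overlapped, since control array 3 (6.74) lay above RANKL-deficient array 1 (6.73).

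Low values in the set came mostly from control arrays 1 and 2. Control array 2 was the lowest of the 6 arrays for 11 of 36 genes (30.6%) and control array 1 for 10 (27.8%), against 14.7% and 17.9% over all genes. Control array 3 was the lowest for 3 genes. RANKL-deficient array 3 was the highest for 9 genes (25%), against 11.9% over all genes. RANKL-deficient array 2 and control array 1 were each the highest for 7 genes (19.4%), against 11.6% and 33.4% over all genes. Without control array 1 the median difference over the set was 0.025, and without control array 2 it was 0.034. Without both it was 0.031, with 19 of 36 genes higher, a median of 0.00059 over all genes, and 2 genes, Acsl4 and Decr2, higher at an unadjusted p under 0.05, where 2.75% of all genes were higher and 3.54% lower. Without RANKL-deficient array 1 the count at that p was 6 higher and 2 lower, the latter Ppara and Acadm, against 3.31% and 2.39% of all genes. Without RANKL-deficient array 3 it was 3 higher and 0 lower, against 3.6% and 2.4%.

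**Figure D4:**
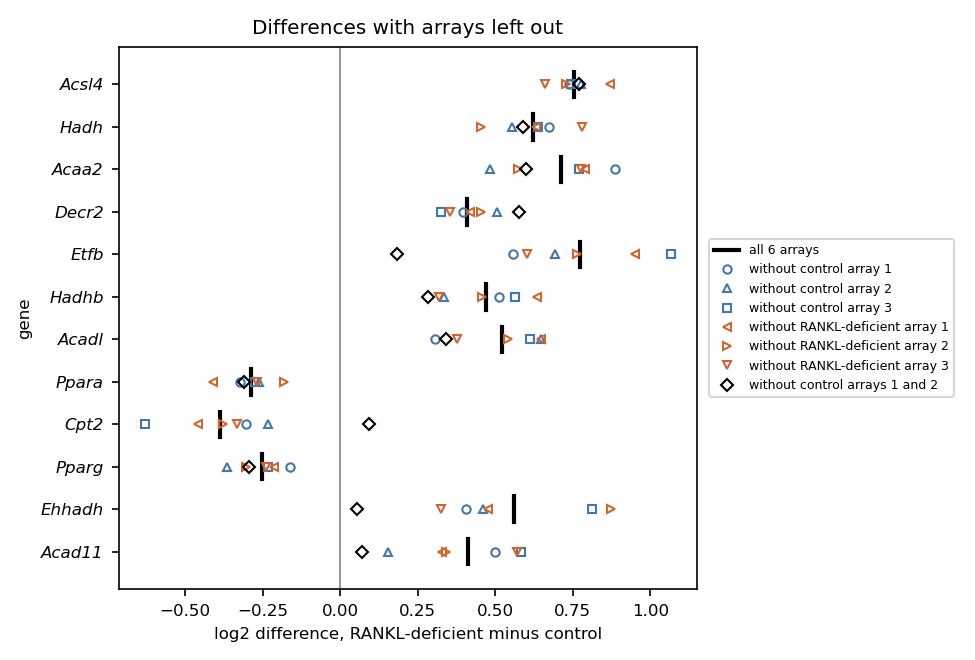
Log2 difference, RANKL-deficient minus control, of the 12 genes with the smallest unadjusted p with all 6 arrays (black bar), with each array left out (open symbols) and without control arrays 1 and 2 together (diamond). Acsl4 stays between 0.66 and 0.87, whereas Etfb, Ehhadh and Acad11 move towards 0 and Cpt2 to the other side of 0 without control arrays 1 and 2.

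Neighbouring pathways gave the setting. At an unadjusted p under 0.05, 4.25% of all genes were higher and 3.9% lower, and the list counts are to be read against that. Cd36, which takes up long-chain fatty acids, measured 4.20 higher on the log2 scale (SE 0.39, adjusted p = 0.120 by limma). Of the 16 fatty acid supply and storage genes measured, 2 were higher at an unadjusted p under 0.05 and 0 lower, with a median of 0.036. The other of the 2 was Mgll, a monoacylglycerol lipase, at 0.99 (0.58 without RANKL-deficient array 3), and the next by p was Fabp5, a fatty acid carrier, at 0.42 (0.23 without RANKL-deficient array 1). Of the 13 synthesis and malonyl-CoA genes, 0 were higher and 1 lower, the desaturase Fads1 at −0.74. Elovl5, an elongase, and Acly, which makes cytosolic acetyl-CoA, differed by 0.35 and 0.33, and the list median was 0.11. Without control arrays 1 and 2 these differences were 0.66 and −0.15.

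Over all genes, 4.25% were higher and 3.9% lower at an unadjusted p under 0.05. Of the 16 other acyl-CoA and peroxisome genes, 2 were higher and 1 lower at that p, with a median of 0.020. The higher were Crot, which moves peroxisomal products onto carnitine, at 0.66 and the thioesterase Acot9 at 0.53, and the lower was Pex11a, a peroxisome division factor, at −0.35. Without control arrays 1 and 2 they were 0.16, 0.33 and −0.24. Of 11 branched chain and ketone body genes, 0 were higher and 1 lower, Pcca at −0.56, a subunit of propionyl-CoA carboxylase. Oxct1, which uses ketone bodies, and Ivd, a leucine pathway dehydrogenase, differed by 0.30 and 0.50. Without control arrays 1 and 2 these were 0.073 and 0.16, and without control array 1 Pcca was at −0.35. Of 15 PPAR target and mitochondrial regulator genes, 0 passed in either direction, and Ucp3, Tfam and Rxra had the smallest p, with differences of 0.70, −0.26 and −0.19. The Ucp3 difference was 0.34 without RANKL-deficient array 2 and 1.11 without RANKL-deficient array 3, and that of Tfam was −0.099 without control array 3 and −0.57 without control arrays 1 and 2. Ucp3 encodes a mitochondrial carrier protein, Tfam a factor for mitochondrial DNA transcription and Rxra the partner receptor of the PPARs. No gene of these lists passed the adjusted threshold (limma, smallest adjusted p = 0.120, for Cd36).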

How the data were processed

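Each of 6 sorted samples was hybridised to its own whole-transcript mouse array from Affymetrix. RNA was amplified from 2 ng with a NuGEN kit, per the labels' protocols. The authors deposited log2 expression values of 35556 probe sets for which the submitters' processing notes name RMA and the Affymetrix Expression Console. Their versions and settings were not given in the labels, and the values' range shows the log2 scale. RMA acts to equalise the arrays, so a shift of all genes would not be seen, and the number of arrays limits the precision. The deposited values were not fully equal over the genes tested. Array medians ran from 5.07 to 5.15. The SD over genes was 1.86 and 1.93 on control arrays 1 and 2, against 1.99 to 2.01 on the other arrays.

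Probe sets with 1 symbol (21789) were named through the platform annotation and RefSeq identifiers, those with several (1621) or no symbol (12146) were left out, and 19938 genes were tested without a filter on low values. The test between groups was that of limma 3.58.1 under R 4.3.3 (lmFit, then eBayes, two-sided, Benjamini-Hochberg over all genes, threshold 0.05), tested on simulated data. Values on every array are given for the 12 genes of smallest p, the smallest of each role and the 4 regulators, and of each neighbouring list the 3 of smallest p are named. The genes and lists were chosen with earlier results of these data known. Same-numbered arrays did not deviate together (correlations −0.023, 0.050 and 0.027), so the numbers were not taken as pairs. The alternatives were quantile normalization, median centring, the replicate block, a filter on low genes, trended robust eBayes, array weights, the mean of probe sets, and leaving out arrays. Some items are not reported here.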

Additional observations from a re-analysis of the deposited data

Results flagged for a closer look

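The Ppargc1a probe set that was not used gave a signal on 1 array alone. Probe set 10529977 measured 6.91 on RANKL-deficient array 3, against 2.84 and 2.96 on the other RANKL-deficient arrays and 2.88 to 3.29 in control. The probe set used for the gene (10529979) was not raised on that array (4.82). The value therefore comes from a probe set outside the main measurement and lies above every control array.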

How the results depend on the processing

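No gene of the set passed the adjusted threshold in any of the 14 alternatives (limma). The count at an unadjusted p under 0.05 was 8 with array weights (7 higher and, for Cpt2, 1 lower, where 5.37% of all genes were higher and 5.68% lower), 2 without control arrays 1 and 2 (2.75% and 3.54%) and 3 to 8 with each array left out (3.16% to 6.74% and 2.39% to 7.37%). The median difference was 0.056 after quantile normalization, 0.031 without control arrays 1 and 2, and 0.025 to 0.17 with each array left out. The genes whose groups did not overlap numbered 19 without control arrays 1 and 2, 10 higher and 9 lower, where 25.6% of all genes were higher and 26.1% lower without overlap, a share near that of the set. They numbered 7 to 11 with each array left out, where 8.27% to 11.7% of all genes were higher and 13.4% to 23.7% lower, since fewer arrays make overlap rarer. With control arrays 1 and 2 left out, the lone control array is assumed to vary like the others.

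Of 36 genes, 17 kept their sign in every alternative and 19 did not, and the cause was not tested. After quantile normalization the sign turned for Cpt1c (0.029), Acads (−0.036), Acad10 (0.042), Acsl5 (−0.049) and Etfa (−0.063), and after median centring for Cpt1c (0.041), Acad10 (0.040) and Acaa1a (0.015). With array weights it turned for Slc25a20 (−0.0037), Ech1 (−0.051), Acaa1a (0.042) and Acsl5 (−0.019). Without control arrays 1 and 2 it turned for Cpt1c (0.19), Cpt2 (0.093), Slc25a20 (−0.22), Acadvl (−0.074), Echs1 (−0.048), Acox3 (−0.18), Hsd17b4 (0.081), Acsl5 (−0.18), Etfdh (−0.020), Ppargc1a (−0.23) and, outside the set, Acly (−0.15). With each array left out the range spanned 0 for Cpt1a (−0.028 to 0.25), Cpt1c (−0.11 to 0.088), Slc25a20 (−0.17 to 0.24), Acads (−0.13 to 0.18), Acad10 (−0.099 to 0.095), Echs1 (−0.064 to 0.28), Hadha (−0.25 to 0.14), Ech1 (−0.087 to 0.55), Decr1 (−0.0014 to 0.44), Acox3 (−0.045 to 0.37), Acaa1a (−0.14 to 0.056), Acsl5 (−0.10 to 0.11), Etfa (−0.038 to 0.063), Etfdh (−0.14 to 0.81), Ppard (−0.021 to 0.33) and Ppargc1a (−0.055 to 0.37).

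The sample titles give same-numbered arrays a number in common and do not say whether they were handled together. Deviations from the group mean were correlated between the groups, and for 4 of 6 arrays the highest value was that with the same number. These same-number correlations were near 0 (−0.023, 0.050 and 0.027). With the replicate block, 6 genes of the set had an unadjusted p under 0.05, all with higher values. Of all genes, 4.68% were higher and 3.32% lower at that p. In that fit 0 passed the adjusted threshold in the set and 0 over all genes, and the median difference was 0.12. Median centring moved the median of all genes from −0.054 to −0.0027 and the share of all genes with higher values from 39.5% to 49.5%, with 26 of 36 in the set. With trended, robust eBayes Cd36 passed the adjusted threshold (adjusted p = 0.0446 by limma).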
